A study of Homo sapiens with 16 samples.

Results

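The 9 genes described here, INPP5J, NLGN3, NAV1, TOX2, CA14, TRANK1, MCHR1, SYNE4 and MGAT4B, were picked by name because their counts were low in human embryonic stem cells that had received siRNA against SEPHS1. They are 9 of the 60675 gene identifiers in the count table and 9 of the 19772 that passed the filter on low counts. The values that chose them are those of the SEPHS1 siRNA libraries against 4 control libraries and against the DSCC1 siRNA libraries, so for these 2 comparisons the genes' values are a description and no test of them is given.

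The study transfected H9, an established line of human embryonic stem cells, with pooled siRNAs and sequenced polyadenylated RNA from 16 libraries. All the cells carried an EGFP reporter at the REX1 promoter and grew on Matrigel in mTeSR1 medium, and all received 30 to 50 nM siRNA. There were 2 libraries with siRNA against Renilla luciferase (called Luciferase here), 2 with an siRNA labelled Control, and 3 each with siRNA against SALL4, VRTN, DSCC1 or SEPHS1. The SALL4, DSCC1, SEPHS1 and luciferase siRNAs were pools made by enzyme digestion (esiRNA), and those against VRTN were synthetic. Harvest was 48 h after transfection for SALL4 and VRTN and 72 h for DSCC1 and SEPHS1. For all 16 libraries a growth of 3 to 4 days is also given, and how it relates to these times is not clear from the sources used here. No harvest time is given for the 4 control libraries (Luciferase and Control together), so time and siRNA cannot be told apart in a comparison with them, whereas SEPHS1 and DSCC1 siRNA share their time. Nothing in the labels says that replicates came from separate cultures, so the p-values measure the spread between these libraries, which may be technical.

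SEPHS1 encodes a selenophosphate synthetase paralogue that lacks the catalytic selenocysteine of SEPHS2 and is known for a role in cellular redox balance. The 9 genes belong to no single pathway. NLGN3 is a postsynaptic adhesion protein of the neuroligin family, which binds presynaptic neurexins, and NAV1 is a microtubule-associated protein of growing axons. MCHR1 is the G protein-coupled receptor for melanin-concentrating hormone, a hypothalamic peptide that acts on feeding. INPP5J is a phosphatase of phosphoinositide lipids that acts in neurite growth, and TOX2 is a nuclear protein with an HMG box. CA14 is a membrane-bound carbonic anhydrase found in brain, retina and kidney, and TRANK1 is a large protein of little-known function whose locus is associated with bipolar disorder. SYNE4 is a nesprin that links the nuclear envelope to kinesin and is best known in secretory epithelia and cochlear hair cells, and MGAT4B is a Golgi enzyme that adds branches to N-glycans in many tissues. SYNE4 and MGAT4B are thus not neural genes by their known roles.

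The targeted transcript was low where its siRNA was used. SEPHS1 (chr10:13317424-13348298, minus strand) stood at 381 and 404 counts per 1000000 counts of the library (CPM, with library sizes scaled by TMM) in the Luciferase libraries and 413 and 440 in the Control libraries, against 79.3, 49.1 and 54.2 CPM in the SEPHS1 libraries. The log2 fold change was −2.75 (SE 0.14; edgeR's quasi-likelihood test, adjusted p = 9.09e-15) against the controls and −2.53 (SE 0.15; adjusted p = 1.95e-13) against DSCC1. SEPHS1 was also lower in the SALL4 libraries than in the controls, at 174, 197 and 249 CPM, a log2 fold change of −0.99 (SE 0.13; edgeR, adjusted p = 1.13e-05). The counts of DSCC1, the target of the comparison group, were 13 to 24 in the DSCC1 libraries and 70 to 129 in the controls, but 5, 42 and 56 in the SEPHS1 libraries. DSCC1 itself was not called in DSCC1 siRNA against controls (log2 fold change −2.27, SE 0.71; edgeR, adjusted p = 0.486).

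Library totals ran from 18597262 to 28662389 counts, and TMM factors of the SEPHS1 libraries, 0.775 to 0.942, were below those of the controls, 1.02 to 1.14. Of 12 pluripotency markers, 11 had at least 3 counts in every library, with a summed level of 3050 to 3744 CPM in the controls and 3708 to 3796 CPM in the SEPHS1 libraries. The exception, ZFP42, which is REX1, was listed at 0 in all 16 libraries, and whether this comes from the cells or from the counting was not tested. The 16 neural progenitor markers summed to 140 to 158 CPM in the controls and 106 to 158 CPM in the SEPHS1 libraries. SIX6 and EMX2 were at 0 in all libraries of both groups, and PAX6 was at 0 in all controls and had 0 to 9 counts in the SEPHS1 libraries. The 10 neural crest markers summed to 127 to 227 CPM in the controls and to 88.3 to 104 CPM in the SEPHS1 libraries. In both groups 2 of the 10 were at 0 throughout, TFAP2B in each, with TFAP2A in the controls and PAX7 in the SEPHS1 libraries. The other neural crest sums were 75.9 to 134 CPM under VRTN siRNA, 82.5 to 228 CPM under SALL4 siRNA and 109 to 133 CPM under DSCC1 siRNA. Only between the controls and the SEPHS1 libraries were the sums compared with the 9 genes. There both were lower under SEPHS1 siRNA, and the part of neural crest markers in the result was not tested. Most of the difference between controls and SEPHS1 libraries was in NGFR. It stood at 94.7 ± 48.9 CPM (SD, n = 4) in the controls and 34.2 ± 8.79 CPM (SD, n = 3) in the SEPHS1 libraries (edgeR, adjusted p = 0.0645). FOXD3 stood at 13.04 ± 2.74 and 12.5 ± 1.28 CPM, SOX10 at 3.06 ± 1.46 and 4.02 ± 2.77 CPM. The sums of the other 6 marker lists overlapped between the controls and the SEPHS1 libraries. Over 7 marker lists with 61 tested genes, edgeR called 0 genes in SEPHS1 siRNA against controls, with 9 at an unadjusted p under 0.05 (12.8% of all tested genes), while DESeq2 called DPPA4 and LIN28A higher and limma-voom called LIN28A higher.

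Before the values, promoters are shown for 5 of the 9 genes, chosen because they carry the CCAAT box or the E-box CAGCTG, which several of the genes share, or motifs that are uncommon among all promoters. Each line gives the 250 bases before a RefSeq transcription start (GRCh38.p14), 5′ to 3′ on the gene's strand, with motif matches in capitals. The genes were low together in the SEPHS1 libraries, and these letters are a description of the windows.

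CA14 promoter, chr1:150257524-150257773, plus strand: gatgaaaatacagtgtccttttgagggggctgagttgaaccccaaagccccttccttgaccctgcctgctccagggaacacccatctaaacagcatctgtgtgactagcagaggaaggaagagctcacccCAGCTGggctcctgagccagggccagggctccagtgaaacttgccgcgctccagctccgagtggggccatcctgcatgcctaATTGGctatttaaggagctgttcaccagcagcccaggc
TOX2 promoter, chr20:43945646-43945895, plus strand: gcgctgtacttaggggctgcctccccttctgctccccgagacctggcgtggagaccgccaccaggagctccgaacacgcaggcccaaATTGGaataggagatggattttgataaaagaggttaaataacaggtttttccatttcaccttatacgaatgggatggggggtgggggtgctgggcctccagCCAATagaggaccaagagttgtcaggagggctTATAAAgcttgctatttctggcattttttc
NLGN3 promoter, chrX:71144591-71144840, plus strand: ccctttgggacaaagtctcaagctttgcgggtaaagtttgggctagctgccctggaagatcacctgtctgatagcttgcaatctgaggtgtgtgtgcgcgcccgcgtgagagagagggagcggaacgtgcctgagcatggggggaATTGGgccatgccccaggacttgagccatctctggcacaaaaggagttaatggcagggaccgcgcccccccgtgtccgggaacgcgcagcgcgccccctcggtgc
NAV1 promoter, chr1:201739650-201739899, plus strand: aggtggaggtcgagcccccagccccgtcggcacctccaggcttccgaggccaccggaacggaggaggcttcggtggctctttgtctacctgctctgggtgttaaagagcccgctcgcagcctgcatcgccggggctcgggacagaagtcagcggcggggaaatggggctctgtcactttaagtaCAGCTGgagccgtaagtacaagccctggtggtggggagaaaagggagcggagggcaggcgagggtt
TRANK1 promoter, chr3:36945055-36945304, minus strand: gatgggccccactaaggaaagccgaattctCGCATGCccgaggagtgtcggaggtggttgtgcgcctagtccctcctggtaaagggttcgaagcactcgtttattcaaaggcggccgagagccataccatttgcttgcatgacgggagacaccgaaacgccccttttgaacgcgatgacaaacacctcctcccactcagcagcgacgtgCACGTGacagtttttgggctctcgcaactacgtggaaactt

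RefSeq's promoter table matched 7 of the 9 genes with 10 promoters, and INPP5J and MCHR1 were not matched. Motifs were searched on both strands as exact letters. CCAAT, the CCAAT box (ATTGG on the other strand), was found in NLGN3, TOX2 and CA14, 3 of 7 genes, against 32% of the table's 35116 promoters. CAGCTG, an E-box of neural basic helix-loop-helix factors, was found in NAV1, TOX2 and CA14, against 14% of all promoters, for TOX2 in a second promoter that is not printed. The GC box GGGCGG was found in NAV1, SYNE4 and MGAT4B, against 42.6% of all promoters, in windows that are not printed. TATAAA occurred in TOX2 alone (10.7% of all promoters), and the TRANK1 promoter was the only one of the 10 with CACGTG (6.34%) and with GCATGCG, the core of the NRF1 motif (3.39%). The cyclic AMP response element core TGACGTC (3.12% of all promoters) was in none of the 10 windows. Nor was the octamer ATGCAAA (3.94%), the SOX motif AACAAAG (4.5%) or the TCF/LEF motif CTTTGAT (2.26%). No motif was found in all 7 genes, and several genes have more than 1 promoter, so the share per gene is not on the same footing as the share per promoter.

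In the SEPHS1 libraries all 9 genes were lower than in every control library, a separation that 7.76% of all tested genes showed in that direction. edgeR called 9 of 9 lower against the controls (0.931% of all tested genes) and 8 of 9 lower against DSCC1 (0.238%), MCHR1 being the exception. The rule used both contrasts, so nothing is read from these counts. The fitted log2 fold changes against the controls ran from −3.88 for INPP5J to −1.06 for CA14, with a median of −1.80, where the median of all tested genes was −0.02. For 8 of the 9 genes the SEPHS1 libraries were also below all 13 others (1.2% of tested genes), and for TRANK1 they were not. They were below all 3 DSCC1 libraries for 9 of 9 genes (8.5% of tested genes). The cells were measured in bulk, so fewer cells expressing a gene and less RNA per cell cannot be told apart. The plot of levels by library shows each value.

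**Figure D1:**
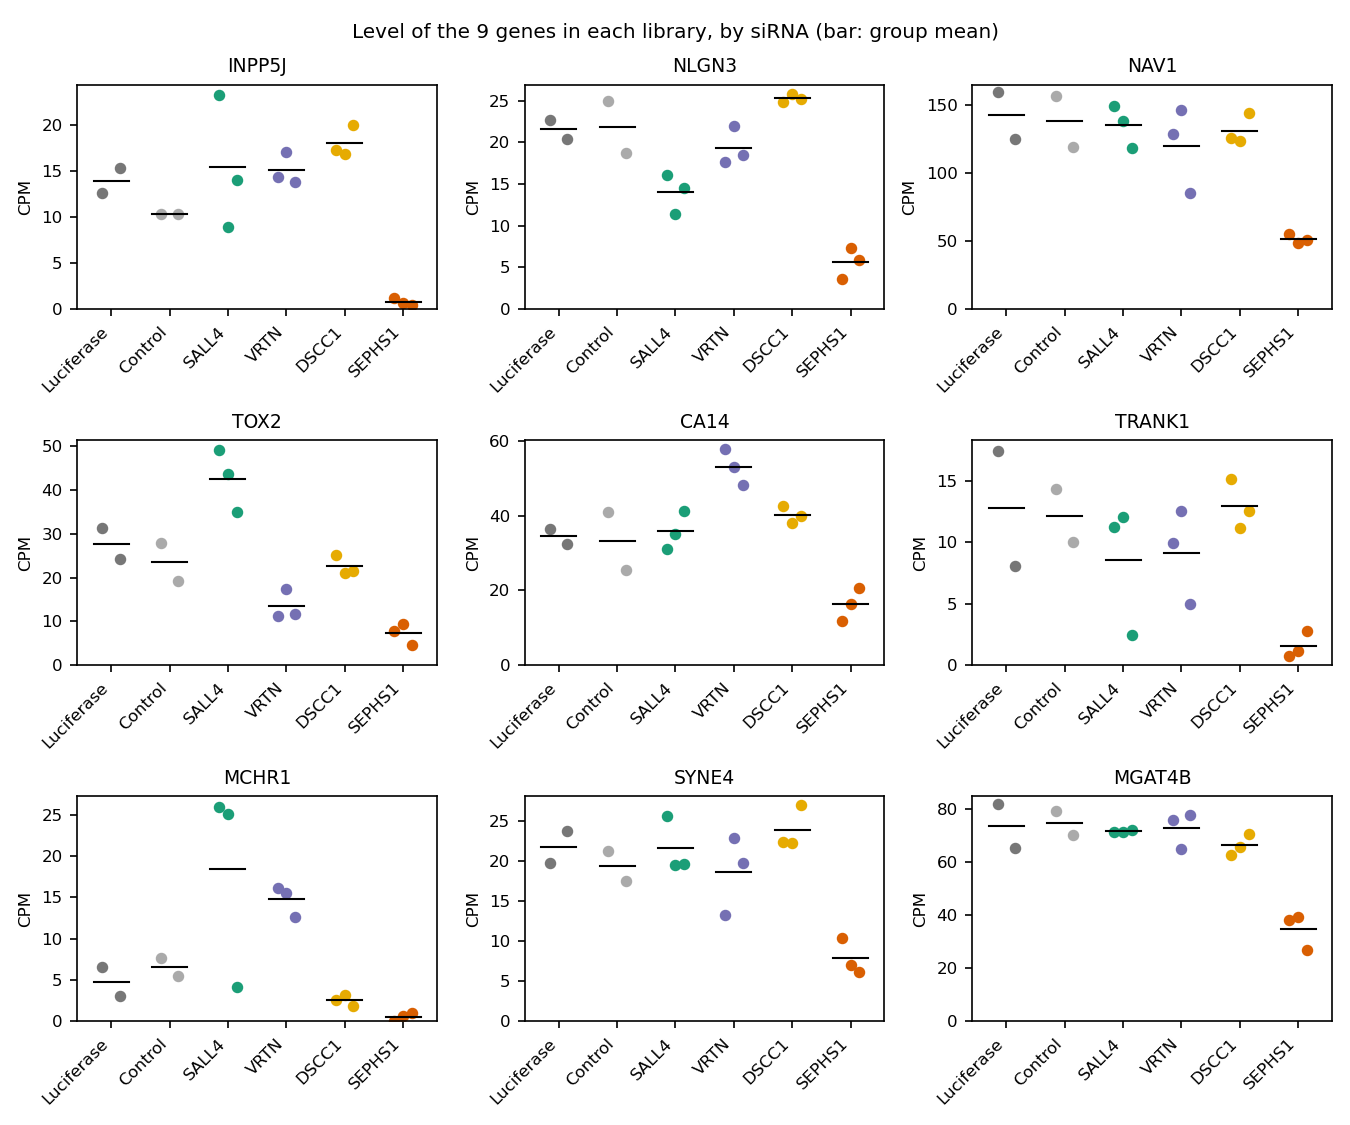
Each panel plots CPM (TMM-scaled, linear axis from 0) of 1 gene in each library, with libraries grouped by siRNA on the horizontal axis, points for libraries and bars for group means (n = 2 for Luciferase and Control, n = 3 for the others). The SEPHS1 points lie below all others for every gene but TRANK1, where SALL4 replicate 3 at 2.43 CPM lies under SEPHS1 replicate 3 at 2.74 CPM.

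Of the 2 signalling genes, INPP5J (chr22:31122731-31134696, plus strand) was the most reduced of the 9 by fitted fold change. It stood at 12.6 and 15.4 CPM in Luciferase, 10.3 and 10.4 CPM in Control, and 1.27, 0.682 and 0.467 CPM in the SEPHS1 libraries, the last from 26, 16 and 8 counts. The SEPHS1 mean was 6.64% of the control mean, and the log2 fold change was −3.88 (SE 0.35). The DSCC1 libraries, at 17.3, 16.9 and 20.04 CPM, lay above every control library, so INPP5J was lower still in SEPHS1 against DSCC1, with a log2 fold change of −4.47 (SE 0.37). SALL4 libraries held 23.3, 8.93 and 14.1 CPM and VRTN libraries 14.4, 17.1 and 13.8 CPM. The SALL4 values spread on both sides of the controls.

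MCHR1 (chr22:40678750-40682814, plus strand) was the least abundant of the 9 genes in CPM and the most variable between siRNAs. Its control values were 6.56, 3.04, 7.66 and 5.41 CPM (Luciferase, then Control), and its SEPHS1 values were 0, 0.682 and 0.993 CPM, from 0, 16 and 17 counts. The count of 0 in SEPHS1 replicate 1 allows up to 0.147 CPM by counting error alone. The SEPHS1 mean was 9.85% of the control mean. MCHR1 was low in the DSCC1 libraries as well, at 2.59, 3.17 and 1.90 CPM, of which only the second was above the lowest control library. In the groups harvested at 48 h it was high, with 25.9, 25.1 and 4.13 CPM under SALL4 siRNA and 16.1, 15.5 and 12.7 CPM under VRTN siRNA. The group means therefore ran from SALL4 over VRTN, Control, Luciferase and DSCC1 to SEPHS1, where the SALL4 range covers that of VRTN and the Control range overlaps that of Luciferase. SALL4 replicate 3 stood apart from the other 2 SALL4 libraries here and in TRANK1.

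Of the 3 genes of synapse and cytoskeleton, NLGN3 (chrX:71144831-71171201, plus strand) stood at 22.7, 20.4, 25.0 and 18.7 CPM in the 4 controls and at 3.57, 7.38 and 5.90 CPM in the SEPHS1 libraries. That is 25.9% of the control mean and a log2 fold change of −1.95 (SE 0.24). The other siRNAs left NLGN3 at 24.8, 25.8 and 25.2 CPM (DSCC1), 17.7, 22.0 and 18.5 CPM (VRTN) and 16.1, 11.4 and 14.6 CPM (SALL4). Its SALL4 libraries lay below all controls and above all SEPHS1 libraries. The promoter printed above for NLGN3 has a match to CCAAT and none to CAGCTG or CACGTG.

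NAV1 (chr1:201622885-201826969, plus strand) had the highest CPM of the 9, 160, 125, 157 and 119 in the controls against 55.4, 48.8 and 51.2 in the SEPHS1 libraries. Its SEPHS1 mean was 36.9% of the controls, and its log2 fold change was −1.44 (SE 0.15). The other 9 knockdown libraries held 119 to 149 CPM, apart from VRTN replicate 3 at 85.3 CPM. The SEPHS1 libraries of NAV1 differed little from one another.

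SYNE4 (chr19:36003299-36008793, minus strand) lay within a narrow band in the other 13 libraries, 13.3 to 27.1 CPM, of which the controls held 19.8, 23.7, 21.3 and 17.5 CPM. Its SEPHS1 libraries held 10.5, 6.995 and 6.19 CPM, 38.3% of the control mean, with a log2 fold change of −1.38 (SE 0.23). The lowest of the other libraries was VRTN replicate 1, close above the highest SEPHS1 library.

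Of the nuclear and less characterised genes, TOX2 (chr20:43914864-44069616, plus strand) lay outside the control range in 3 of the 4 knockdowns, above it in 1 and below it in 2. It stood at 31.3, 24.2, 27.8 and 19.2 CPM in the controls and 7.93, 9.34 and 4.61 CPM in the SEPHS1 libraries, 28.5% of the control mean, with a log2 fold change of −1.80 (SE 0.23). SALL4 libraries held 49.1, 43.8 and 35.0 CPM, all above the controls, and VRTN libraries 11.3, 17.4 and 11.6 CPM, all below them. The DSCC1 libraries, at 25.3, 21.2 and 21.4 CPM, lay inside the control range. In ascending order, the ranges of SEPHS1, of VRTN, of the controls with DSCC1 and of SALL4 did not overlap.

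TRANK1 (chr3:36826820-36945098, minus strand) had uneven controls, at 17.4 and 8.08 CPM in Luciferase and 14.3 and 10.001 CPM in Control. It stood at 0.734, 1.15 and 2.74 CPM in the SEPHS1 libraries (15, 27 and 47 counts), 12.4% of the control mean, with a log2 fold change of −3.03 (SE 0.48). The DSCC1 libraries held 15.1, 11.2 and 12.5 CPM. The SALL4 values were 11.3, 12.0 and 2.43 CPM and the VRTN values 9.95, 12.5 and 4.97 CPM, so that 1 library of each fell well under its group.

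Of the membrane and Golgi enzymes, CA14 (chr1:150257159-150265078, plus strand) had the fitted fold change nearest 0 against the controls, while against DSCC1 that gene was MGAT4B (−0.93, SE 0.15, beside −1.31, SE 0.20, for CA14). Its controls held 36.5, 32.4, 40.9 and 25.5 CPM and its SEPHS1 libraries 11.8, 16.4 and 20.6 CPM, 48.0% of the control mean, with a log2 fold change of −1.06 (SE 0.18). Its VRTN libraries, at 57.8, 53.0 and 48.2 CPM, lay above all other libraries. SALL4 libraries held 31.1, 35.1 and 41.3 CPM and DSCC1 libraries 42.5, 38.0 and 39.9 CPM, and both ranges overlapped that of the controls.

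MGAT4B (chr5:179797597-179806952, minus strand) stood at 82.0, 65.5, 79.5 and 70.3 CPM in the controls and 38.3, 39.2 and 26.8 CPM in the SEPHS1 libraries. That is 46.7% of the control mean and a log2 fold change of −1.10 (SE 0.14). In the 9 other knockdown libraries MGAT4B held between 62.7 and 77.7 CPM, close to the controls. Per kilobase of exon, a scale on which genes can be compared, MGAT4B had the highest control level of the 9 (13.5 CPM per kb) and TRANK1 the lowest (1.02 CPM per kb). In the SEPHS1 libraries these were 6.32 and 0.127 CPM per kb.

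All positions are of GRCh38 in GENCODE release 29, where the 9 genes are protein-coding. Exon overlap with another gene was small, 1.69% of NAV1's exon bases with IPO9-AS1, 1.38% of CA14's with AC242988.1, 2.13% of SYNE4's with AC002116.1 and 1.91% of MGAT4B's with SQSTM1. The sources used here do not state whether counting used strand, so reads in these bases cannot be assigned to 1 gene of a pair on opposite strands.

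The 2 control siRNAs, of which the rule used the mean, were compared with each other. Between the 2 control siRNAs edgeR called 0 of the 9 genes and 0 of all 19772 (0%), with 0 of the 9 at an unadjusted p under 0.05 (1.07% of all tested genes), and DESeq2 and limma-voom also called 0 of the 9. The fitted differences of Control minus Luciferase lay between −0.43 for INPP5J and 0.45 for MCHR1, each with an adjusted p of 1 by edgeR. Replicate 2 of the controls was below replicate 1 in 8 of 9 genes, by −0.81 (TRANK1) to −0.01 (SYNE4) on the log2 scale, INPP5J being 0.14 higher.

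DSCC1 siRNA, harvested at the same time as SEPHS1 siRNA, was set against the controls. The rule used the libraries of both groups, so these values are a description and nothing is read from their counts. edgeR called 0 of the 9 genes, where it called 0.0455% of all tested genes. At an unadjusted p under 0.05 (5.84% of all tested genes) there were 2, INPP5J (log2 fold change 0.59, SE 0.27) and MCHR1 (log2 fold change −1.13, SE 0.49), and DESeq2 and limma-voom called 0 of the 9. INPP5J alone had DSCC1 libraries outside the control range (9.1% of all tested genes). The other 7 genes had fitted differences between −0.17 and 0.25.

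SALL4 siRNA and VRTN siRNA were also compared with these 4 controls, and these comparisons therefore share libraries with the rule. Under SALL4 siRNA edgeR called 1 of the 9, MCHR1 (log2 fold change 1.72, SE 0.46; adjusted p = 0.0329), higher, where 1.85% of all tested genes were called higher and 1.13% lower. The call rested on SALL4 replicates 1 and 2. Without replicate 1 the adjusted p was 0.264, without replicate 2 it was 0.243, and without replicate 3 the log2 fold change was 2.20 (edgeR, adjusted p = 0.000416). TOX2 was just outside the threshold (log2 fold change 0.74, SE 0.21; edgeR, adjusted p = 0.0515) and was called higher by DESeq2 and by limma-voom. NLGN3 had a log2 fold change of −0.63 (SE 0.22; edgeR, adjusted p = 0.145), and limma-voom called it lower. SEPHS1 stood at 50.4% of the controls in these SALL4 libraries. There INPP5J stood at 127%, NLGN3 at 64.6%, TRANK1 at 68.9% and MGAT4B at 96.4%. The rest stood at 96.6% (NAV1), 105% (SYNE4), 106% (CA14), 166% (TOX2) and 324% (MCHR1). TRANK1's SALL4 mean held 1 library at 2.43 CPM beside 11.3 and 12.0 CPM, and INPP5J's held 23.3, 8.93 and 14.1 CPM. Whether the 9 genes follow the level of SEPHS1 was not tested.

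Under VRTN siRNA edgeR called 1 of the 9, TOX2 (log2 fold change −0.93, SE 0.22; adjusted p = 0.0279), lower, where 0.683% of all tested genes were called lower and 0.445% higher. The adjusted p was 0.194 without VRTN replicate 1, 0.162 without VRTN replicate 3 and 0.0788 without Control replicate 1. CA14 had a log2 fold change of 0.65 (SE 0.18; edgeR, adjusted p = 0.0648) with all VRTN libraries above all controls, and DESeq2 and limma-voom called it higher. MCHR1 had 1.40 (SE 0.46; edgeR, adjusted p = 0.182), with its 3 VRTN libraries also above all controls. TOX2, CA14 and MCHR1 were the 3 genes of 9 with VRTN libraries outside the control range (12% of all tested genes).

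**Figure D2:**
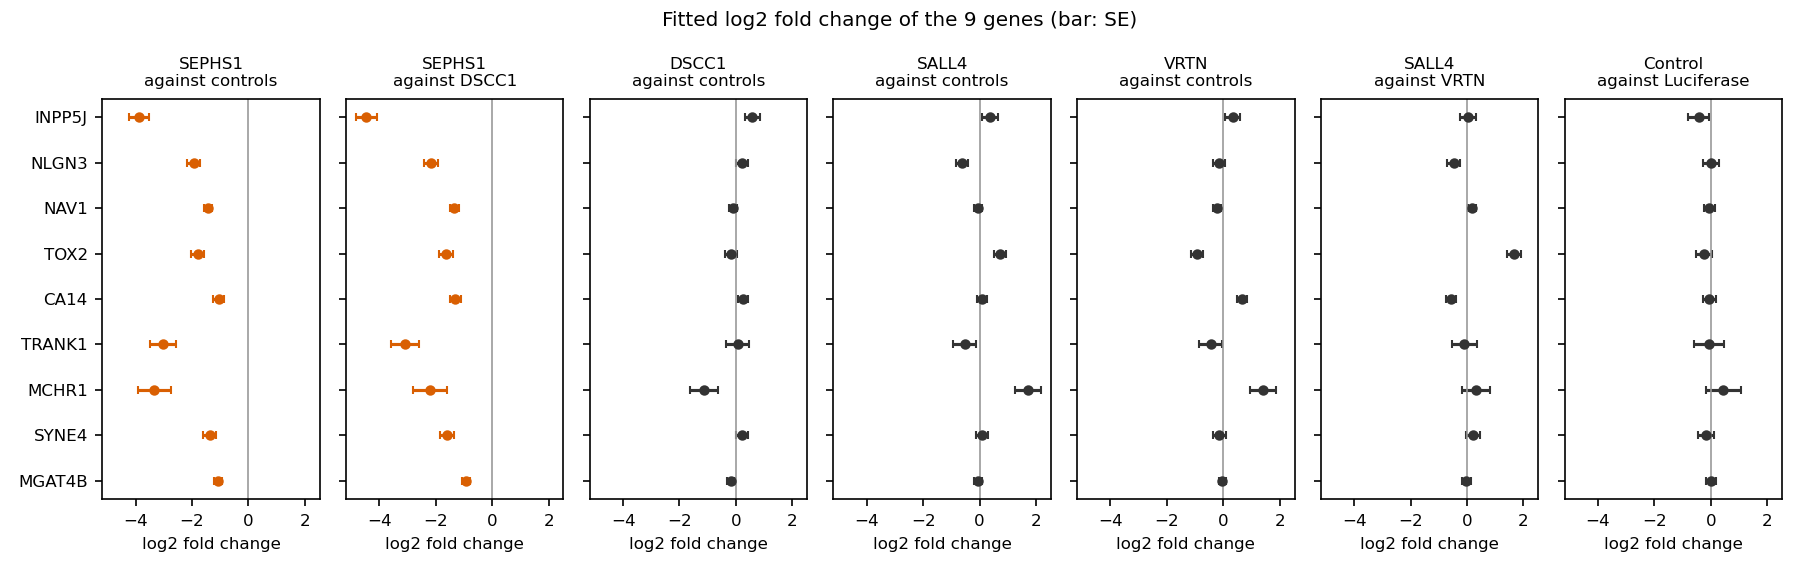
Fitted log2 fold change (horizontal axis, edgeR) of each of the 9 genes (vertical axis) in 7 comparisons, with SE as bars. The first 2 comparisons, in orange, chose the genes, so that all their points lie below 0. In the others TOX2, CA14 and MCHR1 lie farthest from 0, TOX2 at 1.67 in SALL4 against VRTN.

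SALL4 against VRTN siRNA, both harvested at 48 h, compared no library of the rule. The fit still took its filter, scaling and spread from all 16 libraries. SALL4 siRNA was made by enzyme digestion and VRTN siRNA was synthetic, so target and kind of siRNA cannot be told apart. TOX2 was the 1 of 9 genes called by edgeR, where 1.73% of all tested genes were called higher and 0.703% lower. It was higher under SALL4 siRNA by a log2 fold change of 1.67 (SE 0.24; edgeR, adjusted p = 2.67e-05), 3 libraries at 35.0 to 49.1 CPM against 3 at 11.3 to 17.4 CPM. The call held with every library left out in turn and under the other normalisations, filters and tools tried. CA14 (log2 fold change −0.56, SE 0.19; edgeR, adjusted p = 0.128) and NLGN3 (−0.47, SE 0.24; edgeR, adjusted p = 0.422) also had libraries that did not overlap, making 3 of 9 with TOX2, against 16.2% of all tested genes. limma-voom called CA14 lower under SALL4 siRNA. The other 6 genes had fitted differences between −0.09 and 0.32, and MCHR1, at 0.32 with an SE of 0.49, was the least precisely measured of the 9.

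The relatives of the 9 genes were counted from 11 lists, which hold 158 tested genes besides the 9. Against the controls edgeR called 7 of them lower (0.931% of all tested genes) and 1 higher (0.602%), with 34 at an unadjusted p under 0.05 (12.8% of all tested genes). Against DSCC1 it called 0 (0.268% of all tested genes in either direction), with 25 at an unadjusted p under 0.05 (9.58%), while DESeq2 called INPPL1, MGAT4A and CPLX2 lower. The 7 lower calls against the controls were 1 without SEPHS1 replicate 2 and 1 without SEPHS1 replicate 3. They were 3 without Luciferase replicate 1, 11 without Luciferase replicate 2, and 4 without Control replicate 1, DSCC1 replicate 1 or DSCC1 replicate 3, and each of the 7 genes lost its call without at least 1 SEPHS1 library. Among 9 other inositol phosphatases of INPP5J's class, INPPL1 (SHIP2) was called lower, at 81.6 ± 2.99 CPM (SD, n = 3) in SEPHS1 and 116 ± 16.6 CPM (SD, n = 4) in the controls (log2 fold change −0.50, SE 0.13; edgeR, adjusted p = 0.0362), by DESeq2 as well and not by limma-voom. Of NLGN3's family 0 of 6 neuroligins and neurexins were called, 0 of them at an unadjusted p under 0.05 and 0 by DESeq2 or limma-voom. NLGN2 stood at 99.1 ± 15.7 CPM (SD, n = 3) in SEPHS1 against 90.2 ± 8.99 CPM (SD, n = 4), and NLGN4X at 204 ± 18.7 CPM against 194 ± 20.8 CPM. Of 23 postsynaptic scaffold and adhesion genes edgeR called SHANK3, a scaffold of excitatory synapses, lower (8.18 ± 1.09 against 17.2 ± 4.86 CPM; log2 fold change −1.04, SE 0.23; adjusted p = 0.0144). In that list DESeq2 called SHANK3 and GPHN lower and HOMER3 higher, and limma-voom called 0.

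Of 11 navigators and microtubule plus-end genes 0 were called, with 3 at an unadjusted p under 0.05 and 0 by DESeq2 or limma-voom. NAV2, a paralogue of NAV1, stood at 81.4 ± 10.3 CPM (SD, n = 3) against 123 ± 18.1 CPM (SD, n = 4; log2 fold change −0.59; edgeR, adjusted p = 0.0622). The other 3 TOX genes, TOX, TOX3 and TOX4, were not called by edgeR, DESeq2 or limma-voom and had 0 at an unadjusted p under 0.05. TOX4 had 56.8 ± 13.7 CPM (SD, n = 3) under SEPHS1 siRNA against 48.4 ± 6.23 CPM (SD, n = 4). Of 11 carbonic anhydrases 0 were called by edgeR, DESeq2 or limma-voom, with 1 at an unadjusted p under 0.05, and CA11, an acatalytic relative, stood at 59.3 ± 12.6 CPM against 48.9 ± 9.09 CPM. Of 13 nesprin and nuclear envelope linker genes 0 were called by the 3 tools, with 2 at an unadjusted p under 0.05, and SYNE2 stood at 16.4 ± 6.68 CPM against 23.7 ± 4.83 CPM. Of 6 tested genes of the melanin-concentrating hormone and somatostatin system 0 were called by the 3 tools, with 2 at an unadjusted p under 0.05. MCHR2, the second receptor, and PMCH, the hormone's precursor, had 0 counts in every library.

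The N-glycan list held 2 of the 7 lower relatives. MGAT5, which adds a branch to the glycans that MGAT4B also extends, stood at 17.5 ± 3.49 CPM (SD, n = 3) in SEPHS1 and 35.2 ± 8.94 CPM (SD, n = 4) in the controls (log2 fold change −1.01, SE 0.21; edgeR, adjusted p = 0.00764). MGAT4A, the paralogue of MGAT4B, had 33 to 48 counts in the controls and 1, 0 and 0 counts in the SEPHS1 libraries (edgeR, adjusted p = 0.0385). DESeq2 called both lower, and limma-voom called MGAT4A. The axon guidance list of 34 held 3 genes called lower. EFNB2, an ephrin ligand, stood at 4.27 ± 1.90 against 11.5 ± 2.62 CPM (log2 fold change −1.42, SE 0.32; edgeR, adjusted p = 0.0137), and PLXNA1, a semaphorin receptor, at 94.1 ± 3.89 against 137 ± 17.6 CPM (−0.54, SE 0.12; edgeR, adjusted p = 0.0149). EFNA1, another ephrin, had 36 to 58 counts in the controls, 4 to 10 in the DSCC1 libraries and 0 in each SEPHS1 library (edgeR, adjusted p = 0.0408). DESeq2 called all 3 lower, and limma-voom called PLXNA1 and EFNA1.

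General neuronal genes were counted in the same way. Of 28 tested pan-neuronal genes edgeR called 0 lower (0.931% of all tested genes) and 1 higher (0.602%) in SEPHS1 siRNA against controls. At an unadjusted p under 0.05 (12.8% of all tested genes in either direction) there were 2 lower and 6 higher. The median log2 fold change of the 28 was 0.17. The gene called was GAP43, a growth cone protein, at 20.7 ± 2.78 CPM (SD, n = 3) in SEPHS1 and 9.03 ± 1.46 CPM (SD, n = 4) in the controls (log2 fold change 1.20, SE 0.24; edgeR, adjusted p = 0.00554). DESeq2 called CPLX2 lower and INA, UCHL1 and GAP43 higher, and limma-voom called GAP43 higher. Against DSCC1 edgeR called 0 of the 28 (0.268% of all tested genes). INA had means of 29.8 CPM in the controls, 42.2 CPM in SEPHS1 and 40.8 CPM in DSCC1, and UCHL1 of 290, 372 and 343 CPM. GAP43 held 7.69 to 11.07 CPM in the controls and 11.11 to 14.9 CPM in DSCC1. It held 13.3 to 14.9 CPM under VRTN siRNA and 6.97 to 14.0 CPM under SALL4 siRNA. The GAP43 call held with each library left out, and was lost with the Luciferase libraries alone as controls (edgeR, adjusted p = 0.0944) and with control replicates 2 alone (edgeR, adjusted p = 0.0594). Some of the 28 had low counts, with control means of 1.27 CPM for MAP2, 1.10 CPM for TUBB3 and 1.97 CPM for DCX. Low counts limit the calls in such genes, so nothing is read from the 0 called lower. Of the 9 genes NLGN3, NAV1, MCHR1 and INPP5J have the neural roles given above, and the part of general neuronal genes in the result was not tested.

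**Figure D3:**
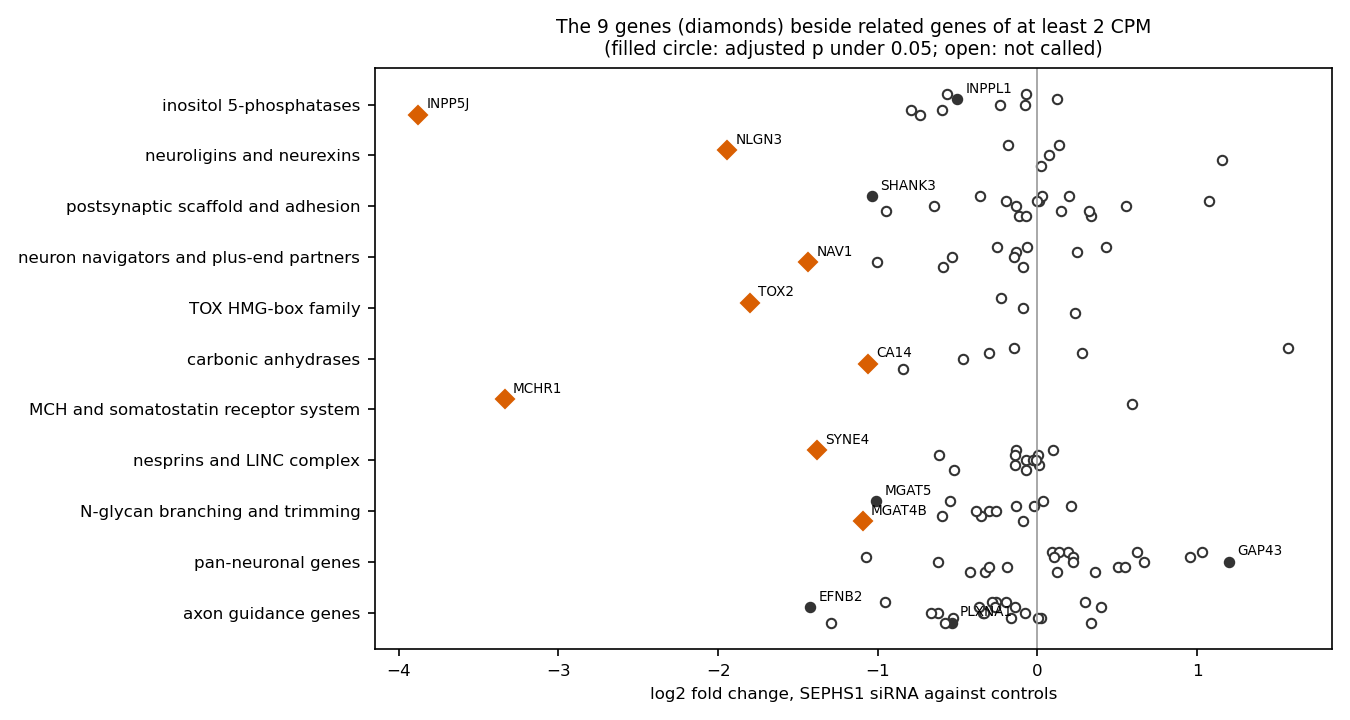
Log2 fold change in SEPHS1 siRNA against controls (horizontal axis) of the 9 genes where a list holds them (orange diamonds) and of the other tested genes of each list with a mean of at least 2 CPM in either group (circles, filled where edgeR's adjusted p was under 0.05). INPP5J at −3.88 and MCHR1 at −3.34 lie farthest left, and GAP43 is the 1 filled circle to the right of 0.

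To see which genes had a pattern most like the mean of the 9, log2 CPM was centred on each gene's mean over the 16 libraries and compared by root-mean-square difference over 9828 genes. The 6 nearest were NOS3 (0.365), CPNE2 (0.435), SEZ6 (0.456), NEK6 (0.469), ZNF777 (0.478) and ZCCHC24 (0.481). NOS3, endothelial nitric oxide synthase, stood at 9.54 ± 2.66 CPM (SD, n = 4) in the controls and 1.56 ± 0.721 CPM (SD, n = 3) in the SEPHS1 libraries, and SEZ6, a neuronal membrane protein, at 10.9 ± 0.688 and 3.73 ± 2.08 CPM. Over the 13 libraries without SEPHS1 siRNA, 0 of these 6 were among the 6 nearest. The likeness in the first 6 was thus found with the SEPHS1 libraries in, which the choice of the genes used.

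**Figure D4:**
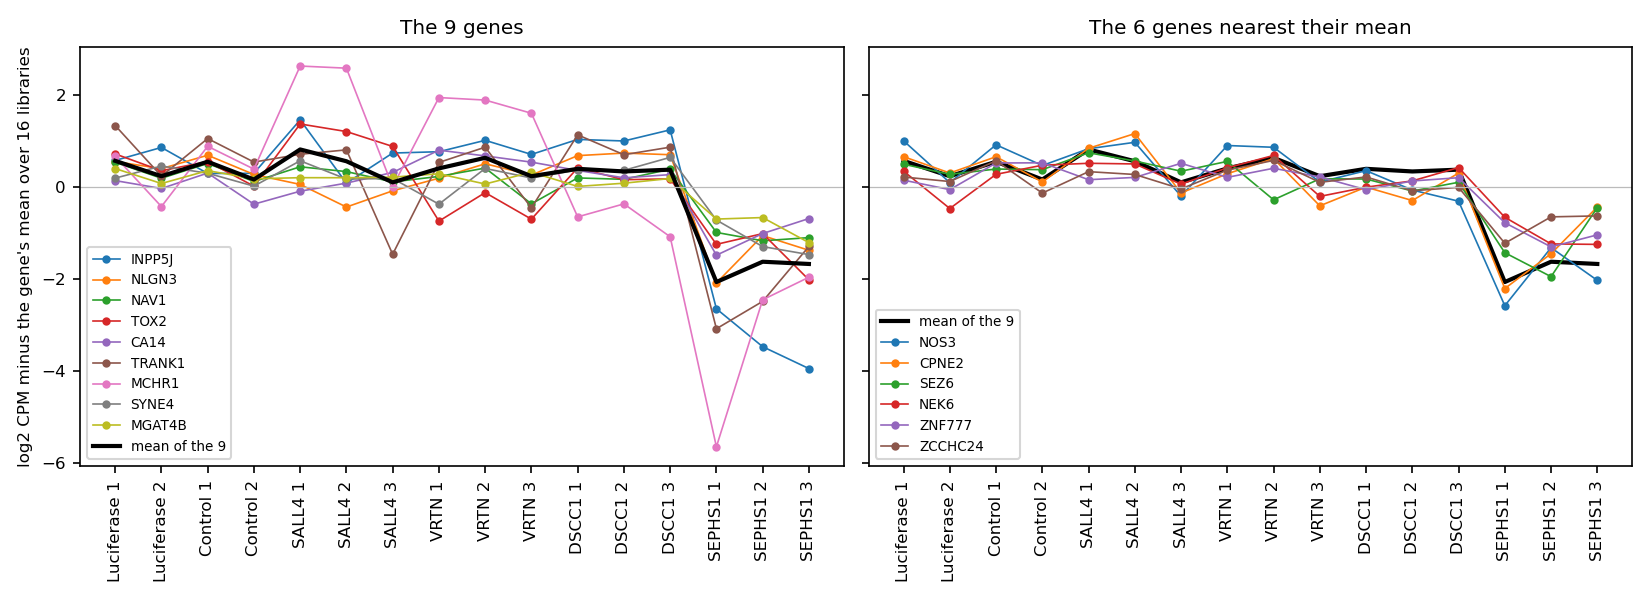
Log2 CPM minus each gene's mean over 16 libraries (vertical axis) in each library (horizontal axis, siRNA and replicate), for the 9 genes (left) and the 6 genes nearest their mean (right), with the mean of the 9 as a thick line. MCHR1 spreads most, its lowest point being a count of 0 whose place depends on the prior count of 2, and the SEPHS1 libraries lie lowest for the mean of the 9.

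Single genes had nearest neighbours of their own, again with the SEPHS1 libraries in, which the choice of the genes used. For TOX2 it was PDZRN3 (0.371), at 24.9 ± 1.56 CPM (SD, n = 3) under SALL4 siRNA, 5.72 ± 1.58 CPM (SD, n = 3) under VRTN siRNA and 4.20 ± 1.26 CPM (SD, n = 3) under SEPHS1 siRNA. For NLGN3 it was GNAL (0.344), a G protein subunit, at 6.75 ± 0.838 CPM (SD, n = 3) under SALL4 siRNA and 12.2 ± 1.68 CPM (SD, n = 4) in the controls. NMNAT2 was nearest to both NAV1 (0.242) and SYNE4 (0.286), SIDT2 to MGAT4B (0.180), ZCCHC24 to CA14 (0.282), MMP19 to TRANK1 (0.543) and NOS3 to MCHR1 (1.20). INPP5J's nearest gene was the siRNA target SEPHS1 itself, at a distance of 0.862, in a profile that includes the libraries that chose INPP5J. Under SALL4 siRNA SEPHS1 stood at 50.4% of the controls and INPP5J at 127%, the latter from libraries at 23.3, 8.93 and 14.1 CPM. Whether INPP5J follows the level of SEPHS1 was not tested. Among the 9, NAV1 and MGAT4B were the closest pair (0.271), and MCHR1 was the farthest from the mean of the 9 (1.40).

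The siRNA sequences were not used here, so only the whole SEPHS1 transcript could be set beside those of the 9 genes. This comparison was added after the values were seen. On the same strand the longest exact stretch shared with the longest coding SEPHS1 transcript (3273 bases) was 11 to 13 bases in the 9 genes, where the median over 14564 genes was 12 bases and 39.7% had 13 or more. The stretch in INPP5J, the most reduced gene, was 13 bases long and is shown for that reason.

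INPP5J stretch shared with SEPHS1: CCAAGGCTTGGCA

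Capitals mark the whole shared stretch. On the opposite strand the longest stretches were 11 to 13 bases in 8 genes and 21 bases in NAV1, a length that 0.92% of genes reached, NAV1's transcript being 13091 bases long. Whether any stretch bears on the falls was not tested.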

How the data were processed

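RNA of H9 cells was measured in 16 libraries (Lexogen SENSE kit, single-end reads of 80 bp). Values are raw counts as deposited by the authors, made with STAR 2.4.0.1, HTSeq 0.9.1 and GRCh38, per the submitters' processing notes. The strand setting, the annotation release and the treatment of reads shared between genes are not given in the sources used here. The counts of 60675 identifiers were reduced by filterByExpr to 19772 (40903 removed), scaled by TMM and fitted with edgeR 4.0.16 (R 4.3.3) as 6 groups in 1 quasi-likelihood model. The controls are the mean of Luciferase and Control, and a call is a Benjamini-Hochberg adjusted p under 0.05 over all tested genes. A floor of 3 counts is 0.102 to 0.175 TMM-scaled CPM and covers counting error only, since reads carry no molecular identifiers.

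The 9 genes, the lists and the motifs were chosen with earlier results of these data known. Also named were the targeted genes, up to 3 called genes per list, family paralogues, the 6 genes nearest the mean profile and the nearest gene of each (average log2 CPM of at least 2, prior count 2). DESeq2 1.42.0, limma 3.58.1 (voom with quality weights), other scalings, filters, control sets and libraries left out were alternatives. The fit was tested on simulated counts. Promoters are RefSeq's. Results for some genes are not reported here.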

Additional observations from a re-analysis of the deposited data

How the results depend on the processing

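Over 28 alternative settings the 9 genes gave 1656 values, of which 0 reversed a call, 21 lost one, 38 gained one, and 49 uncalled values changed sign. The cause of each change was not tested. The values include those of SEPHS1 against controls and of SEPHS1 against DSCC1, the comparisons that chose the genes. Nothing is read from calls that were kept or not reversed in these comparisons. The 9 genes called lower in SEPHS1 against controls were 9 with every library left out, 7 by limma-voom (without TRANK1 and MCHR1) and lost MCHR1 with only the groups compared. Against DSCC1 the 8 were 5 by limma-voom and 8 to 9 with 1 library left out. TOX2 in SALL4 against VRTN kept its call throughout.

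All genes called in SEPHS1 against controls (303) became 516 with no filter, 569 by DESeq2, 158 by limma-voom, 198 with only the groups compared, 128 and 103 with Luciferase or Control alone, 137 with control replicates 2 alone, and 135 to 472 with 1 library left out. In SEPHS1 against DSCC1 (53) they became 151 with no filter, 212 by DESeq2, 24 by limma-voom and 22 to 128 with 1 library left out. In DSCC1 against controls (9) they became 99 with no filter, 2 with the filter of 1 CPM in 3 libraries, 53 by DESeq2, 41 by limma-voom, 37 with only the groups compared, 2 with Luciferase alone, 2 with Control alone, 109 and 4 with control replicates 1 or 2 alone, and 2 to 98 with 1 library left out. In SALL4 against controls (590) they became 1291 by limma-voom, 349 with only the groups compared, 236 and 280 with Luciferase or Control alone, 342 with control replicates 1 alone, and 275 to 924 with 1 library left out. In VRTN against controls (223) they became 397 with no filter, 417 by DESeq2, 348 by limma-voom, 89 and 95 with Luciferase or Control alone, and 135 to 341 with 1 library left out. In SALL4 against VRTN (482) they became 726 with no filter, 734 by DESeq2, 897 by limma-voom, 193 with only the groups compared, and 248 to 879 with 1 library left out. In Control against Luciferase they were 0 to 1 with 1 library left out.

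Of the 9 genes, the 1 called higher in SALL4 against controls became 2 with RLE size factors, no filter, DESeq2, limma-voom or control replicates 2 alone, and 0 with the 1 CPM filter, only the groups compared, Luciferase alone, Control alone or control replicates 1 alone (0 to 2 with 1 library left out, MCHR1 also losing its call without DSCC1 replicate 1 at an adjusted p of 0.0505). limma-voom called 1 lower there and 1 lower in SALL4 against VRTN. In VRTN against controls the 1 called lower became 0 with only the groups compared, Luciferase alone, Control alone or control replicates 2 alone (0 to 1 with 1 library left out). The 0 called higher there became 2 with no filter or control replicates 2 alone, and 1 by DESeq2, by limma-voom or with only the groups compared (0 to 2 with 1 library left out). Related genes called lower in SEPHS1 against controls (7) became 12 with no filter, 3 by limma-voom, 4 with only the groups compared, 2 with Luciferase alone, 0 with Control alone, 1 with control replicates 2 alone and 1 to 11 with 1 library left out. Those called higher (1) became 2 with no filter or the 1 CPM filter, 4 by DESeq2, 0 with Luciferase alone or control replicates 2 alone, 3 with control replicates 1 alone, and 1 to 3 with 1 library left out. Against DSCC1 the 0 called lower became 1 with no filter, 3 by DESeq2 and 0 to 1 with 1 library left out.

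Deviations from the group mean had a median correlation of 0.023 over 36 pairs of libraries with the same replicate number. These ran from −0.32 to 0.36, with 9 above 0.1. Over 70 pairs with different numbers the median was −0.003, with 13 above 0.1. Luciferase and Control libraries of the same number correlated at 0.338. In a group of 2 libraries the deviations mirror each other, so these values cannot settle whether the numbers pair the libraries. With a replicate block the genes called became 147 in SEPHS1 against DSCC1 and 15 in DSCC1 against controls. Among the 9 genes the block gave 2 called higher in SALL4 against controls and 1 in VRTN against controls, and among related genes 4 lower against controls and 1 lower against DSCC1. On the gene's strand alone, the GC box and the CCAAT box were each in 1 of 7 genes and the NRF1 core in 0. None of the 6 genes nearest the mean profile, 0 of 6, remained without the SEPHS1 libraries. Low counts limit MCHR1, TRANK1 and INPP5J most in the SEPHS1 libraries.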
